A study of Mus musculus with 4 samples.

Results

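The genes described here make cholesterol, sense its level, move it out of the cell or build fatty acids. They were taken by symbol from a list of 32 genes, of which 31 have a row in the files, out of 23284 gene rows in all. Msmo1, a sterol methyl oxidase gene, has no row under that symbol. The row of its older symbol in the RefSeq table, Sc4mol, is given separately and stands outside every count of the 31. The list does not hold every enzyme of the pathway.

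The measurements are RNA sequencing values of stromal cells sorted from the large intestine of mice. The gate kept living cells (7AAD-negative) with podoplanin on their surface and without CD45, CD31 or EpCAM, which mark leukocytes, blood vessel lining and epithelium. There are 4 libraries, 1 for each group: wild-type BALB/c, BALB/c carrying the Rag2 knockout, wild-type C57BL/6J, and C57BL/6J carrying the IL-10 knockout. Rag2 is needed to assemble antigen receptors, so mice without it lack mature T and B cells, and IL-10 is a cytokine that restrains inflammation. The sources used here give neither the age of the mice nor the number of animals behind a library. Since each group is a single library, replicate error could not be measured, no test was run, and "higher" and "lower" describe these libraries.

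Cells build cholesterol from acetyl-CoA. The mevalonate steps lead to farnesyl diphosphate, squalene synthase commits it to sterols, and a last series of enzymes turns lanosterol into cholesterol. SREBP2 switches these genes on when membranes run short of sterol: SCAP then carries it from the endoplasmic reticulum to the Golgi, where it is cut and its active part released. INSIG proteins hold SCAP back when sterol is plentiful. SREBP1 mainly serves fatty acid synthesis. The liver X receptors (LXRs) respond to oxysterols and switch on the cholesterol exporters. In fibroblasts this system is a housekeeping programme whose output follows sterol supply and membrane growth.

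The values are FPKM, fragment numbers divided by transcript length and by library size, which allow levels of different genes to be compared. The depth, estimated from the steps between low values, ran from 8260000 fragments (IL-10 knockout) to 9840000 (BALB/c wild type). Of the deleted genes, Il10 had 129.9 FPKM in the IL-10 knockout library, by its label, against 3.33 in its wild type. Rag2 was listed at 0.712 in the library labelled Rag2 knockout and at 0 in the other libraries. Neither value by itself checks its label, because whole-gene FPKM do not show whether the deleted part was read. Xist, from the inactive X chromosome, was at most 0.105 FPKM in the BALB/c libraries, 23.02 in the C57BL/6J control and 44.9 in its IL-10 knockout. The Y-linked Ddx3y had 36.3, 31.5, 16.9 and 0.0269 FPKM. Sex-linked RNA was thus similar in the BALB/c libraries, but differed between the strains and between the C57BL/6J libraries. The C57BL/6J wild type library held both Xist and Ddx3y. Every series of 4 values is in this order: BALB/c wild type, Rag2 knockout, C57BL/6J wild type, IL-10 knockout.

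All 31 genes were expressed in at least 1 library, and 30, 30, 31 and 30 of them reached 1 FPKM. Their median levels were 10.1, 10.5, 11.4 and 15.4 FPKM, near the median of all genes at 1 FPKM or more (9.34 to 9.72). The most abundant were the LXR-beta gene Nr1h2 (43.5 to 51.1 FPKM), Insig1 (45.6 to 67.7), Srebf2 (29.4 to 51.8) and the HMG-CoA synthase gene Hmgcs1 (27.3 to 55.3). Idi1, the isopentenyl diphosphate isomerase, was the lowest in every library (0.62 to 1.07 FPKM). The widest range between libraries was that of Stard4, a carrier of sterol between membranes, at 5.30-fold, followed by Fdps at 4.94-fold. The narrowest were Mvk (1.16-fold), Nr1h2 (1.17-fold) and Hsd17b7 (1.19-fold).

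**Figure D1:**
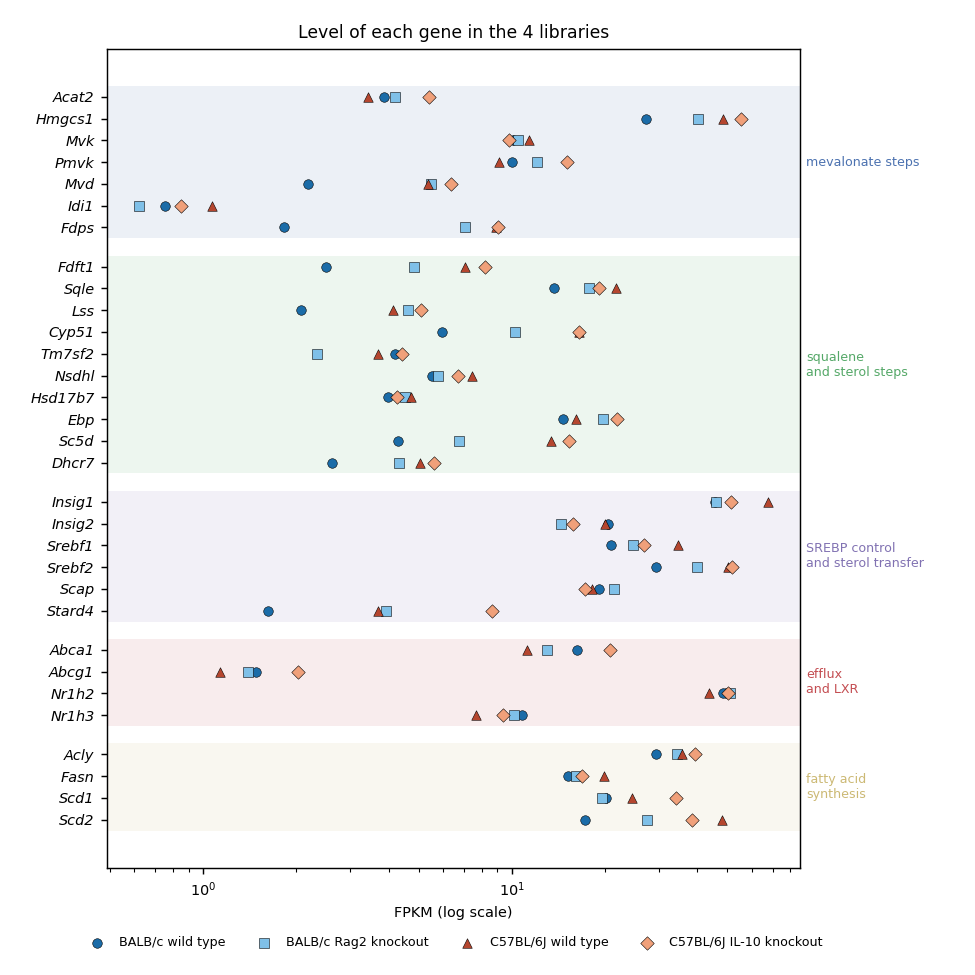
FPKM of each of the 31 genes (rows, grouped by role) in the 4 libraries, on a log axis, with 1 marker per library. The BALB/c wild type marker is the lowest of its row for 19 genes, and for none of the 4 efflux and LXR genes.

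Among the mevalonate enzymes, Hmgcs1, Mvd and Fdps differed most between the libraries. Hmgcs1 (chromosome 13, 119690351 to 119708260 in GRCm38), which makes HMG-CoA, had 27.3, 40.1, 48.4 and 55.3 FPKM. Mvd, the mevalonate diphosphate decarboxylase (chromosome 8, 122433596 to 122443422), had 2.19, 5.48, 5.35 and 6.36 FPKM. Fdps, the farnesyl diphosphate synthase (chromosome 3, 89093588 to 89101967), had 1.83, 7.06, 8.93 and 9.06 FPKM. In all 3 the BALB/c wild type library was the lowest, and for Mvd and Fdps the other 3 lay close together. Fdps has 5 near-identical gene copies in the annotation, among which fragments may have been shared, so its level is uncertain.

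The other mevalonate genes did not follow that order. Mvk, the mevalonate kinase, had 10.1, 10.5, 11.4 and 9.84 FPKM. Pmvk, which adds the next phosphate, had 10.04, 12.1, 9.08 and 15.2 FPKM. Acat2, a cytosolic thiolase with the near-identical copy Acat3, had 3.86, 4.19, 3.43 and 5.42 FPKM. Pmvk and Acat2 were thus highest in the IL-10 knockout library and lowest in C57BL/6J wild type.

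Of the 10 squalene and sterol enzymes, 9 were lowest in BALB/c wild type. Fdft1, squalene synthase (chromosome 14, 63145150 to 63181687), had 2.51, 4.82, 7.05 and 8.19 FPKM. Cyp51, the lanosterol demethylase (chromosome 5, 4080674 to 4104697), had 5.97, 10.3, 16.5 and 16.6 FPKM. Sc5d, the sterol desaturase (chromosome 9, 42251592 to 42264300), had 4.27, 6.77, 13.4 and 15.4 FPKM. In these 3 both BALB/c libraries lay below both C57BL/6J libraries, with the Rag2 knockout between the wild types. Exons of Fdft1 overlap those of Ctsb on the other strand by 774 bases, and exons of Cyp51 those of Akap9 by 166. The strand setting of the counting is not known, so fragments of such partners may be mixed.

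Lss, lanosterol synthase (chromosome 10, 76531565 to 76557139), had 2.08, 4.63, 4.15 and 5.10 FPKM. Sqle, the squalene epoxidase, had 13.7, 17.9, 21.7 and 19.2 FPKM. Dhcr7, which takes the last step to cholesterol in one branch, had 2.61, 4.31, 5.04 and 5.61 FPKM. BALB/c wild type was again the lowest of each set. Nsdhl (5.54 to 7.45 FPKM), Hsd17b7 (3.99 to 4.74) and the sterol isomerase gene Ebp (14.6 to 22.0) had the same lowest library over a narrow range. Tm7sf2, a sterol reductase, was the exception at 4.18, 2.35, 3.69 and 4.40 FPKM, lowest in the Rag2 knockout. The row Sc4mol had 5.46, 10.4, 12.5 and 17.9 FPKM.

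Among the regulators, Srebf2 (chromosome 15, 82147269 to 82205379), which encodes SREBP2, had 29.4, 39.9, 50.2 and 51.8 FPKM. Srebf1, the SREBP1 gene, had 20.9, 24.7, 34.6 and 26.9 FPKM. Insig1, itself a target of SREBP2, had 45.6, 46.01, 67.7 and 51.2 FPKM. All 3 were lowest in BALB/c wild type, but for Srebf1 and Insig1 the C57BL/6J wild type library was the highest, above the IL-10 knockout. Insig2 had 20.5, 14.5, 20.1 and 15.8 FPKM, lower in each knockout than in the wild type of its strain. Scap ranged from 17.4 to 21.5 FPKM. Stard4 had 1.62, 3.93, 3.71 and 8.62 FPKM, with BALB/c wild type low and the IL-10 knockout high.

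The efflux and LXR genes ran differently, with C57BL/6J wild type the lowest library for all 4. Abca1 (chromosome 4, 53030789 to 53159988), which loads cholesterol onto apolipoproteins, had 16.3, 13.0, 11.2 and 20.8 FPKM. Abcg1, an exporter to lipoprotein particles, had 1.48, 1.40, 1.14 and 2.04 FPKM. Nr1h3, the LXR-alpha gene, had 10.8, 10.2, 7.70 and 9.41 FPKM, and Nr1h2 had 48.4, 51.1, 43.5 and 50.3. In the fatty acid group, Scd2, a stearoyl-CoA desaturase (chromosome 19, 44293676 to 44306864), had 17.3, 27.4, 48.0 and 38.5 FPKM. Its neighbour Scd1 had 20.2, 19.7, 24.5 and 34.0 FPKM. Acly, which makes cytosolic acetyl-CoA, and Fasn, the fatty acid synthase, kept to 29.5 to 39.3 and 15.2 to 19.9 FPKM, both lowest in BALB/c wild type.

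Several enzyme genes have a promoter match that can be read from the reference. The RefSeq promoter table (GRCm38.p6, 250 bases before to 50 after a start) held windows for 25 of the 32 genes, Msmo1 included, and none for Fdps, Fdft1, Sqle, Stard4, Abcg1, Scd1 and Scd2. The NF-Y box CCAAT, bound by a factor that works beside SREBPs at sterol genes, occurred on either strand in 20 of these 25 genes and in 14 of 15 synthesis enzymes, and in 41.1% of 27025 genes with a window. The sterol response element TCACNCCAC occurred in 1 of 25 (Hmgcs1) and in 1.44% of all genes. Its shorter form CACNCCAC, tried after the first search, was found in 3 (Acat2, Hmgcs1 and Insig1) and in 7.12%. The LXR element, 2 copies of AGGTCA spaced by 4 bases, was found in 0 of 25 and 0.0148% of all genes. A match is a description of letters and not a bound site.

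The stretches below show the box of 5 enzymes that were lower in BALB/c wild type than in C57BL/6J wild type, read 5′ to 3′ on the strand of the gene and ending at or before the start of their RefSeq window; for Lss that start lies inside the gene's annotated span. Capitals mark CCAAT or its reverse complement, and in the first line the sterol response element. The stretch with the Hmgcs1 element lies at chr13:119690179-119690257 (plus strand), and the element itself at bases 137 to 129 before the start. The stretch with its nearest box lies at chr13:119690271-119690345. The others lie at chr8:122443423-122443484 (Mvd, minus strand), chr10:76531508-76531582 (Lss, plus), chr5:4104698-4104761 (Cyp51, minus) and chr9:42264301-42264359 (Sc5d, minus).
Hmgcs1 sterol response element: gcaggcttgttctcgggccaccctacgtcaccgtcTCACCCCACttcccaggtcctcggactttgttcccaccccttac
Hmgcs1 box: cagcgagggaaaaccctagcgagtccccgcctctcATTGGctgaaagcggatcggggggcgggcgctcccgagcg
Mvd box: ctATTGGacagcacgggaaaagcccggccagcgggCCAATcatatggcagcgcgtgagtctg
Lss box: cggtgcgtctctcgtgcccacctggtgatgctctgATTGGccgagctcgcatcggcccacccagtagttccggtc
Cyp51 box: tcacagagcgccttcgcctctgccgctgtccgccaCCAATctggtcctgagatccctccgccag
Sc5d box: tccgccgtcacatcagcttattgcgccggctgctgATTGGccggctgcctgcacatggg

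In these stretches the box nearest the start begins 45 bases before it in Hmgcs1, 27 in Mvd, 62 in Lss, 29 in Cyp51 and 24 in Sc5d. Mvk, Nsdhl and Hsd17b7, whose levels varied little, hold the box too, so its presence did not separate the genes that differed from those that did not.

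The wild types were compared to describe the strains without a knockout. Their sex-linked RNA differed too, with Xist at 0.0509 FPKM in BALB/c and 23.0 in C57BL/6J, and Ddx3y at 36.3 and 16.9. Its part was not tested. Most synthesis genes were lower in the BALB/c than in the C57BL/6J library, while the efflux and LXR genes were slightly higher. Differences are given as the log2 ratio, the difference of log2 of FPKM plus a pseudocount of 1, which understates the change of low genes. The range in parentheses is a 95% counting interval, computed from estimated fragment numbers, and covers counting error only. Fdps had the lowest ratio at -1.81 (-2.29 to -1.33), then Sc5d at -1.45 (-1.65 to -1.25), Scd2 at -1.42 (-1.52 to -1.31), Cyp51 at -1.33 (-1.53 to -1.13) and Fdft1 at -1.20 (-1.47 to -0.92). The estimated fragments behind Fdps were about 21.3 in BALB/c and 90.8 in C57BL/6J, and those behind Cyp51 about 219 and 531.

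Those 5 genes were the members at least 2-fold lower in BALB/c, 5 of 31, and 0 were 2-fold higher. Over all genes with at least 1 FPKM in either library, 2.17% of 12290 were 2-fold lower and 1.81% higher. At 1.5-fold, 13 of 31 (41.9%) were lower and 0 higher, beside 6.37% and 5.9% of all genes. The 13 include Mvd at -0.99, Stard4 at -0.84, Hmgcs1 at -0.80, Srebf2 at -0.75, Lss and Dhcr7 both at -0.74, Srebf1 at -0.70 and Sqle at -0.63. Without the 11 genes that have a near-identical copy or exonic bases shared with another gene, Fdps, Fdft1, Cyp51 and Scd2 among them, 1 of 20 was 2-fold lower (5%; Sc5d) and 6 of 20 were 1.5-fold lower (30%; Mvd, Sqle, Sc5d, Dhcr7, Srebf2 and Stard4). The median ratio of the 31 was -0.37, against 0.00 for all genes. By role the medians were -0.24 for 7 mevalonate genes, -0.68 for 10 squalene and sterol genes, -0.63 for 6 control genes, -0.32 for 4 fatty acid genes and 0.33 for 4 efflux and LXR genes. Abca1 had a ratio of 0.50 (0.40 to 0.61) and Nr1h3 one of 0.44 (0.14 to 0.74). Idi1 entered this comparison only through its C57BL/6J value. The interval held 0 for 10 of the 31 genes. These were Acat2, Mvk, Pmvk, Idi1, Tm7sf2, Hsd17b7, Ebp, Abcg1, Scap (0.06) and Insig2 (0.03).

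The BALB/c side of this result differed between its libraries. Set against C57BL/6J wild type, the Rag2 knockout library had 0 members 2-fold lower (2.96% of all genes) and 3 of 31 at 1.5-fold (9.07% of all genes), with a median of -0.27. These 3 were Sc5d at -0.89, Scd2 at -0.78 and Cyp51 at -0.64. Strain and genotype vary together there. Taking all 4 libraries, Cyp51 and Sc5d were the 2 of 31 genes with both C57BL/6J libraries at least 1.5-fold above both BALB/c libraries, a pattern of 1.19% of 13078 genes. The reverse pattern was found in 0 of 31, beside 0.696% of all genes. The libraries of a strain differ in genotype and are not replicates.

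**Figure D2:**
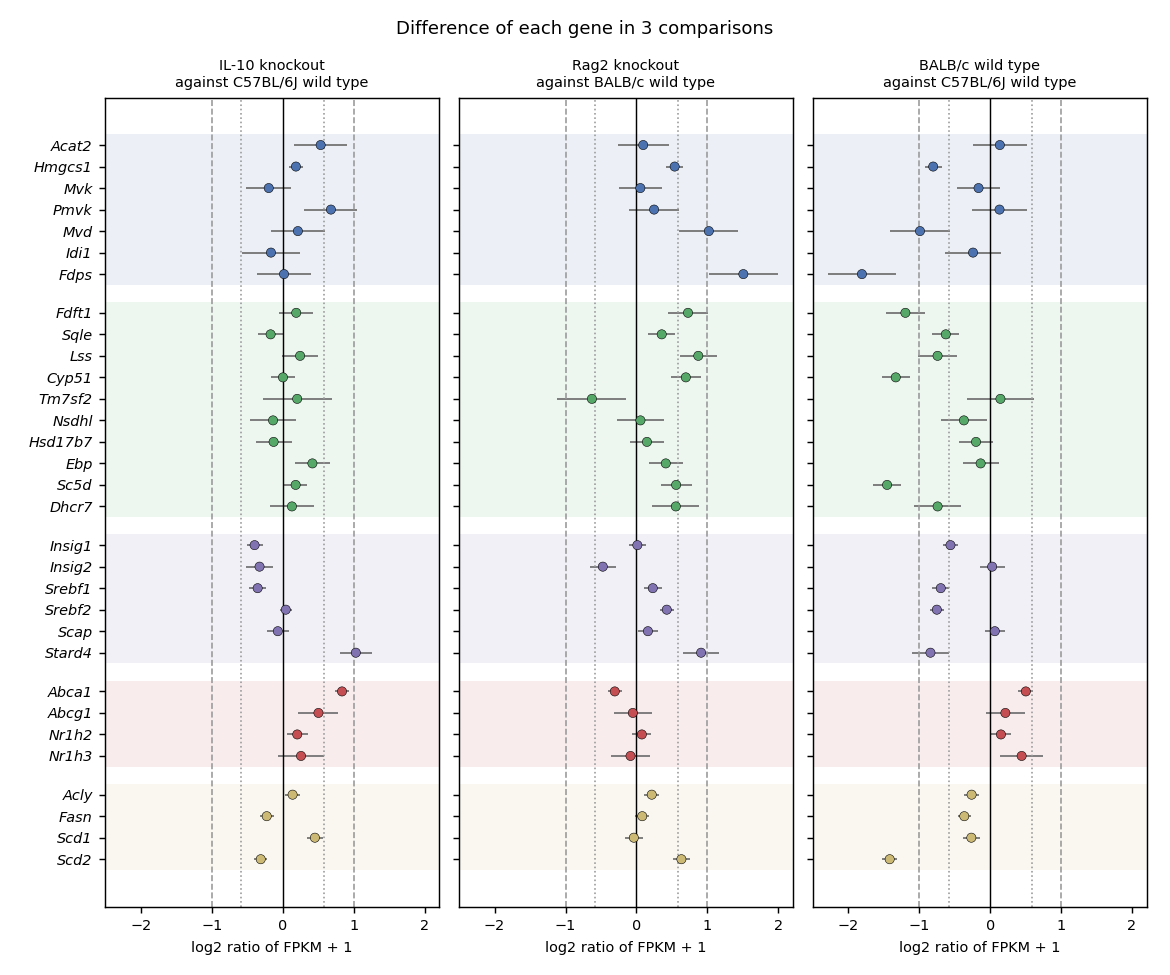
Log2 ratio of FPKM + 1 for each gene in the 3 comparisons, with horizontal bars for the 95% counting interval, dotted lines at 1.5-fold and dashed lines at 2-fold. Genes below 1 FPKM in both libraries are left out (Idi1 in the middle panel). In the right panel 13 genes lie left of the left dotted line and 0 lie right of the other.

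Setting the Rag2 knockout against its BALB/c wild type describes stroma from mice without the recombinase. Of 16 synthesis enzymes, 5 were at least 1.5-fold higher in the knockout library (31.25%, beside 10.3% of all genes) and 1 was lower (6.25%, beside 7.65%). Those higher were Fdps, Mvd, Lss, Fdft1 and Cyp51. All of them but Mvd are among the 11 genes with a near-identical copy or shared exonic bases. Among the 16 enzymes, the counting interval lay above 0 for 10, below 0 for 1 and held 0 for 5 (Mvk, Nsdhl, Acat2, Hsd17b7 and Pmvk). Intervals were not computed over all genes, so these interval counts have no share of all genes beside them. This comparison and the one between the wild types share the BALB/c wild type library, so a low value there enters both. Fdps stood at 1.51 (1.02 to 1.99) and Mvd at 1.02 (0.60 to 1.44). Stard4 followed at 0.91 (0.65 to 1.17), Lss at 0.87 (0.61 to 1.13), Fdft1 at 0.73, Cyp51 at 0.70 (0.48 to 0.91) and Scd2 at 0.63 (0.52 to 0.75).

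Of 30 genes that reached 1 FPKM in either library, 2 were at least 2-fold higher and 0 lower, beside 4.42% and 2.03% of 12336 genes. At 1.5-fold 7 were higher (23.3%) and 1, Tm7sf2 at -0.63 (-1.11 to -0.14), was lower, beside 10.3% and 7.65%. Without the same 11 genes, 1 of 20 was 2-fold higher (Mvd, 5%), 2 were 1.5-fold higher (Mvd and Stard4, 10%) and 0 lower. These shares of those higher are near the 4.42% and 10.3% of all genes. Of the 16 synthesis enzymes measured, 15 had a ratio above 0, with a median of 0.48, against a median of 0.00 and 49.5% above 0 for all genes. Srebf2 stood at 0.43 (0.33 to 0.52) and Hmgcs1 at 0.54 (0.42 to 0.66). Insig1, at 0.01 (-0.10 to 0.13), did not move with them, and Insig2 was lower at -0.47 (-0.66 to -0.29). The efflux and LXR median was -0.07, with Abca1 at -0.31 (-0.40 to -0.21).

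BALB/c wild type was lowest of the 4 libraries for 19 of 31 genes (24.2% of all genes), and for 9 of 10 squalene and sterol enzymes. It was at least 1.5-fold below each of the other 3 libraries for 7 of 31, against 1.61% of all genes: Mvd, Fdps, Fdft1, Lss, Cyp51, Stard4 and Scd2. These patterns were counted after the values had been seen. With C57BL/6J wild type as the control in place of BALB/c wild type, the members' median for the Rag2 knockout turns from 0.22 to -0.27. The latter value mixes strain with genotype, so it cannot check the direction within BALB/c.

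Setting the IL-10 knockout against its C57BL/6J wild type describes stroma of mice prone to colitis. Ddx3y had 0.0269 FPKM in the knockout and 16.9 in the wild type, and the part of sex-linked differences was not tested. Of 17 synthesis enzymes, 1 was at least 1.5-fold higher in the knockout library (5.88%, beside 16.5% of all genes) and 0 lower (beside 10.9%). Smaller ratios leaned upward, with 12 above 0 (70.6%, beside 49.8% of all genes) and 5 below. The intervals of Pmvk, Acat2, Ebp, Hmgcs1 and Sc5d lay above 0, and no enzyme had an interval below 0. Stard4 was 2-fold higher at 1.03 (0.81 to 1.26), Abca1 stood at 0.84 (0.73 to 0.94) and Pmvk at 0.68 (0.31 to 1.05). Fdps (0.02), Cyp51 (0.00) and Srebf2 (0.04) had ratios near 0, and the interval of Srebf2 was -0.04 to 0.13. Srebf1 at -0.35 (-0.47 to -0.23), Insig1 at -0.40 (-0.51 to -0.28) and Insig2 at -0.33 (-0.52 to -0.13) were lower. Scd1 and Scd2, adjacent desaturase genes, went opposite ways at 0.45 (0.34 to 0.57) and -0.31 (-0.40 to -0.22).

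In numbers, 1 of 31 genes was 2-fold higher and 0 lower, beside 10.1% and 3.82% of 12790 genes. At 1.5-fold 3 were higher and 0 lower, beside 16.5% and 10.9%. These shares are below those of all genes in both directions. The median was 0.14 for the 31 and 0.18 for 17 synthesis enzymes, against 0.00 for all genes. All 4 efflux and LXR genes were above 0, with a median of 0.38. Sc4mol had ratios of 0.48 here, 0.82 in the Rag2 comparison and -1.07 between the wild types.

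**Figure D3:**
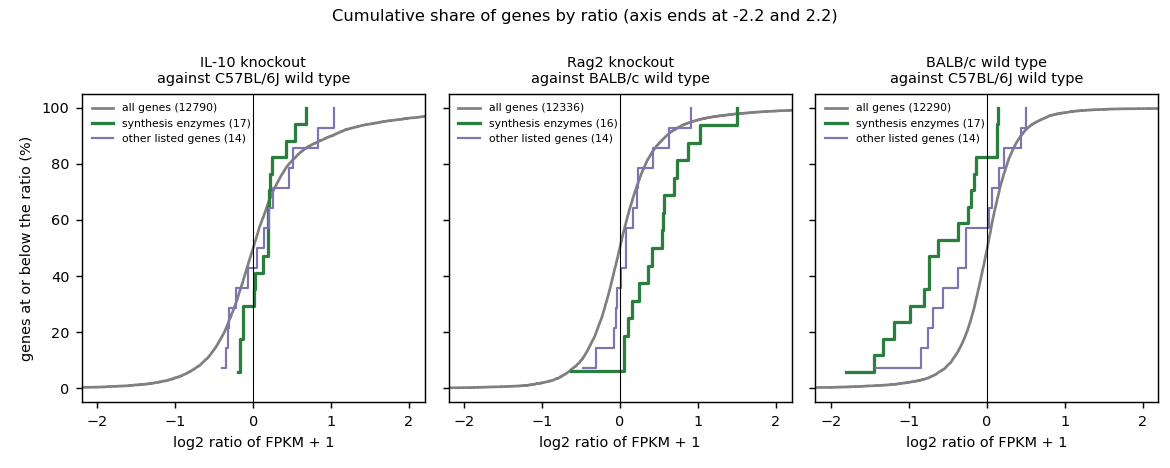
Cumulative share of genes (vertical axis, percent) at or below each log2 ratio of FPKM + 1 (horizontal axis) for all genes, the synthesis enzymes and the other listed genes, with the number of genes in each key. The enzyme curve lies left of all genes between the wild types (median -0.63), right of it for the Rag2 knockout (median 0.48) and narrow around 0.18 for the IL-10 knockout.

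The knockout comparisons share no library. Across 30 genes measured in both, Pearson's r between the log2 ratios was 0.07 and Spearman's rho 0.04, and across 12048 genes they were 0.56 and 0.48. In the IL-10 comparison the members' ratios ran from -0.40 to 1.03 and those of all its genes from -11.5 to 11.4. In the Rag2 comparison they ran from -0.63 to 1.51 and from -13.4 to 12.1. A narrower span can lower a correlation, and its part was not tested. Both ratios were above 0 for 15 of the 30 (50%, beside 32.5% of all genes), both below for 1 (3.33%, beside 34.3%) and opposite for 14 (46.7%, beside 33.2%). The correlations are across genes, which are not independent replicates, and all points of a comparison come from the same pair of libraries. Stard4 was the member at 1.5-fold or more in both, at 0.91 and 1.03.

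Other genes of the pathway were read from a list of 35, all found. Between the wild types 0 were 2-fold apart, 1 was 1.5-fold higher and 1 lower (2.86% each, beside 5.9% and 6.37% of all genes), and the median was 0.05. In the Rag2 comparison 0 were 2-fold apart, 2 were 1.5-fold higher (5.71%, beside 10.3%) and 3 lower (8.57%, beside 7.65%). Elovl6, a fatty acid elongase, stood at 0.76 (0.56 to 0.97). In the IL-10 comparison 1 was 2-fold higher and 1 lower (2.86% each, beside 10.1% and 3.82%), and at 1.5-fold 2 were higher and 3 lower (beside 16.5% and 10.9%). Ch25h, which makes the oxysterol 25-hydroxycholesterol, had 62.6, 39.4, 48.4 and 15.1 FPKM, a ratio of -1.62 (-1.87 to -1.37) in the IL-10 knockout and -0.65 (-0.82 to -0.49) in the Rag2 knockout. Cyp27a1, which makes another oxysterol, had 61.1, 37.6, 58.0 and 29.2 FPKM. Cyp7b1, which breaks oxysterols down, had 4.10, 5.002, 5.78 and 12.4 FPKM. Gpr183, an oxysterol receptor of immune cells, had 2.38, 2.15, 1.05 and 4.61 FPKM. Elovl6, Cyp27a1, Cyp7b1 and Gpr183 were named after their values were seen. Ch25h and Cyp27a1 were lower in both knockouts than in their wild types. The 7 genes of the isoprenoid branch had medians of 0.19, -0.03 and 0.00 in the IL-10, Rag2 and wild type comparisons.

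Markers of other cell types moved with some of these comparisons. The 8 epithelial markers summed to 19.999, 111.9, 67.8 and 274.8 FPKM, none at 0, with Epcam at 2.76, 9.35, 6.29 and 21.1. Between the wild types 5 of 8 were 2-fold lower in BALB/c (median -1.37), and in the Rag2 knockout 8 of 8 were 2-fold higher (median 1.91), the same directions as the sterol enzymes. In the IL-10 knockout 8 of 8 were 2-fold higher as well (median 1.62), where the median of the enzymes was 0.18. Leukocyte markers summed to 127, 227, 67.8 and 727 FPKM, with Ptprc at 8.31, 11.5, 3.34 and 43.1, and neutrophil markers to 23.2, 240.9, 9.42 and 3780. Their part in the sterol results was not tested, and in bulk RNA fewer cells of a type cannot be told apart from less RNA per cell.

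Fibroblast markers summed to 7338 to 8678 FPKM, with Pdpn at 189.6, 292.5, 158 and 204. Of the adipocyte markers, Lep was at 0 in all 4 libraries, Adipoq was at most 0.116 FPKM and Plin1 at most 0.182. Fabp4, which other cells express too, carried that list's sum of 41.6 to 52.9. B cell markers summed to 24.7, 1.17, 8.76 and 68.7 FPKM, with 4 of 4 lower in the Rag2 and 4 of 4 higher in the IL-10 knockout by 2-fold or more. T cell markers summed to 9.87, 1.79, 4.04 and 60.1 FPKM, with 2 of 4 lower and 4 of 4 higher by the same measure. The low lymphocyte values of the Rag2 knockout run the way its label says. Macrophage markers summed to 213, 403, 108 and 635 FPKM, with 4 of 5 at least 2-fold higher in the IL-10 and 1 of 5 in the Rag2 knockout. Smooth muscle markers summed to 186, 84.5, 161 and 66.3 FPKM, with 3 of 4 lower in the IL-10 and 2 of 4 in the Rag2 knockout. The part of these markers in the sterol results was not tested either. Blood endothelium markers summed to 24.7 to 30.8 FPKM. Lymphatic endothelium markers summed to 15.2, 9.18, 15.8 and 6.81 FPKM, lower in each knockout than in the wild type of its strain. Mesothelium markers summed to 1.22, 1.91, 0.980 and 4.89 FPKM, highest in the IL-10 knockout. The part of these lists was not tested. Pecam1 had 12.4 to 17.9 FPKM.

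**Figure D4:**
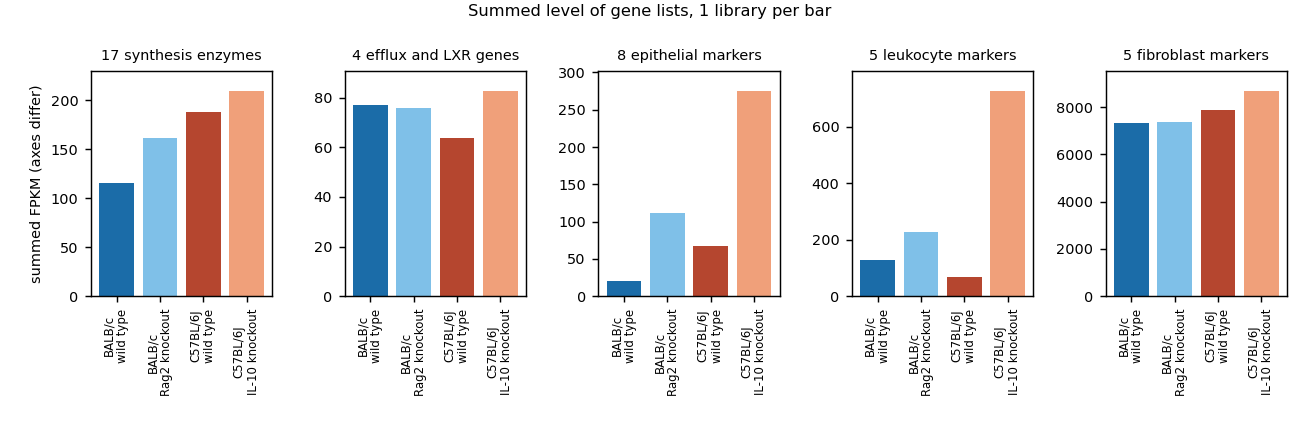
Summed FPKM of 5 gene lists in the 4 libraries, 1 bar per library, each panel with its own axis from 0. The 17 synthesis enzymes sum to 116, 161, 188 and 209 FPKM and are lowest in BALB/c wild type, as are the epithelial markers, whereas leukocyte markers and the efflux and LXR genes are lowest in C57BL/6J wild type.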

How the data were processed

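RNA of sorted colonic stromal cells was measured in 4 libraries, 1 per group, grouped by their titles. The authors deposited FPKM, a single number for each symbol. The submitters' processing notes list Cuffdiff 2.2.1, TopHat2 2.1.1, SAMtools 0.1.18 and Bowtie2 2.2.8, with build mm10. The sources used here do not give the annotation, strand setting or library scaling. Build mm10 is a C57BL/6J genome, and its effect on BALB/c values was not tested.

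From the FPKM, log2 of FPKM plus a pseudocount of 1 was taken, a gene entered a comparison with at least 1 FPKM in 1 of its libraries, and those 2-fold or 1.5-fold apart were counted (Python 3.11.15, pandas 2.3.3). Depth was estimated from single-transcript genes of at least 1000 nt, with 200 nt taken off each length. Of the low values used, 77.8% to 79.3% fell within 0.1 of a whole fragment. Counting intervals (95%) use that depth and the longest RefSeq-matched transcript. They cover counting error only. BLAST 2.17.0 found transcripts of other genes at 95% identity over 50% of the length. In the annotation 11 of the 31 genes have such a copy or share exonic bases with another gene. The steps were tested on simulated data.

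The members and all lists were chosen with earlier results of these data known. Every member was named. Of other lists, genes at least 2-fold apart with 5 FPKM in the higher library were to be named, and marker lists are given as sums and counts with their defining markers, except 1 list that is not reported here. Pseudocount, filter and scaling were varied.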

Additional observations from a re-analysis of the deposited data

Results flagged for a closer look

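For 3 of the 30 genes measured in both comparisons (10%) the knockout libraries departed from their wild types in opposite directions, with both counting intervals off 0. Abca1, the cholesterol exporter, had a log2 ratio of 0.84 in the IL-10 knockout and -0.31 in the Rag2 knockout. Scd2, a stearoyl-CoA desaturase, had -0.31 and 0.63 in that order, and Srebf1, the SREBP1 gene, had -0.35 and 0.23. Of the 35 other pathway genes, Fads1 and Fads2, fatty acid desaturases, did so too (5.71%), both lower in the IL-10 and higher in the Rag2 knockout. Intervals were not computed over all genes, so the 10% has no share of all genes beside it. Opposite signs alone, whatever the interval, were found in 46.7% of the 30 and in 33.2% of 12048 genes. The difference between the knockouts was not tested, since each rests on 1 library, and strain differs between them as well.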

How the results depend on the processing

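No member's ratio past 1.5-fold changed sign under another pseudocount, filter or scaling. Of 92 member ratios, 19 moved by more than their counting half-width with a pseudocount of 5 and 2 with 0.1. With equal sums without small RNA rows 20 of 92 did so. Without a filter, or with ratios centred on the median of all genes, every count kept within 1.5 times. Every median then moved by no more than the median counting half-width of single genes (0.22 to 0.24). That bound is wider than the IL-10 median of 0.14. With a pseudocount of 0.1, members 1.5-fold higher in the IL-10 knockout were 5 and members 2-fold higher in the Rag2 knockout 4. With a pseudocount of 5, which compresses low values, the 2-fold higher members were 0 in either knockout, those 1.5-fold higher and lower in the Rag2 knockout 1 and 0, those lower in BALB/c between the wild types 2 (2-fold) and 8 (1.5-fold), and those higher in both C57BL/6J libraries 1. With at least 5 FPKM, 4 were 1.5-fold higher and 0 lower in the Rag2 knockout. With 75th percentile scaling 0 were 2-fold higher in the IL-10 and 1 in the Rag2 knockout. Equal sums without small RNA rows shifted the median of all genes by -0.13 in both knockout comparisons and gave 0 and 1 for the same counts, 2 members 1.5-fold lower in the Rag2 knockout and 1 higher in both C57BL/6J libraries. The causes were not tested.

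Chosen after seeing the data, counts were also taken without the 11 genes that have a copy or shared exonic bases. Of 20 left, 1 (5%, from 16.1%) and 6 (30%, from 41.9%) were 2-fold and 1.5-fold lower in BALB/c between the wild types. In the Rag2 knockout 1 (5%, from 6.67%) and 2 (10%, from 23.3%) were 2-fold and 1.5-fold higher and 0 lower. The shares of all genes higher there were 4.42% and 10.3%. Across all libraries 1 was higher in both C57BL/6J libraries. The 3 genes 1.5-fold higher in the IL-10 knockout, Stard4, Abca1 and Pmvk, were not among the 11, so that count did not fall. Counting Sc4mol as Msmo1 changed no count by over 1.5 times. The Rag2 knockout set against C57BL/6J wild type gave 0 members 2-fold or 1.5-fold higher, 0 and 3 lower, and a median of -0.27. No paired analysis was possible because each group has 1 library. Counting error limits low genes: half-widths ran from 0.09 to 0.49 on the log2 scale.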

Other observations

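The Rag2 and IL-10 knockout libraries, which differ in strain and genotype together, were not a comparison of the design. Of 30 genes measured, 25 had a lower value in the Rag2 knockout library (83.3%, beside 48.4% of all genes), with a median log2 ratio of -0.24. Among them were 14 of 16 synthesis enzymes and all 4 fatty acid genes.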
